A study of Mus musculus with 8 samples.

Results

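The genes described here are 10 extracellular proteoglycans of the small leucine-rich and the large hyaluronan-binding families, chosen by name from the 22609 symbols of the gene table: Dcn, Bgn, Aspn, Fmod, Lum, Prelp, Omd, Ogn, Vcan and Acan. They were read in 8 RNA-seq libraries of total RNA from immortalized mouse dental papilla cells. The control line, iBmp2 fx/fx (fx/fx hereafter), carries Bmp2 floxed/floxed alleles, and the other line, iBmp2 ko/ko (ko/ko hereafter), is labelled Bmp2 KO. Each line was sequenced once at 6, 24, 48 and 72 h of culture, so the 4 libraries of a genotype differ in culture time and no time has a replicate. One cell line stands for each genotype, and any difference between the lines other than Bmp2 cannot be told apart from the genotype. The labels name no differentiation medium for these cultures, and the series' design text gives 8 h where the labels give 6 h.

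Small leucine-rich proteoglycans have short core proteins folded from leucine-rich repeats. They bind fibrillar collagen, set fibril diameter and spacing, and several of them also bind growth factors of the TGF-beta and BMP family. The large proteoglycans versican and aggrecan bind hyaluronan at one end and carry many chondroitin sulfate chains, which hold water in the matrix. In the tooth, biglycan and decorin are known matrix components of predentin and dentin, and versican is known from the loose mesenchyme of the dental papilla.

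The libraries held from 25890110 to 32415665 reads on genes, and levels are given as CPM, the counts scaled to the same number of such reads in every library. Bmp2 itself had 1 count in the fx/fx library of 24 h and 0 in the other 7, so the targeted gene could not be used to check the genotype labels. The library labelled ko/ko at 24 h stood apart. Its log2 CPM over the 13121 genes tested correlated at 0.996 with the fx/fx library of 6 h and at 0.948 with the ko/ko library of 6 h. Of the 291 genes that differed between genotypes at the other times, 287 were nearer to the fx/fx than to the ko/ko library of 6 h in it. Among the proteoglycan genes, all 8 that could be tested were nearer to the fx/fx library of 6 h in this sense. Of the 7 other libraries, the nearest was fx/fx of 6 h for 6 of them, ko/ko of 48 h for Fmod and ko/ko of 72 h for Ogn, and 4 of the 8 were nearer to the ko/ko than to the fx/fx mean of the other times. Whether it was swapped or mislabelled was not tested. Its differences from the fx/fx library of 24 h are not counted as a further comparison of the lines. This library is therefore shown apart, and the main comparison uses the 6 libraries of 6, 48 and 72 h, 3 per genotype.

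The labelled cell type was checked with marker genes over 6, 48 and 72 h. Of 13 dental papilla mesenchyme markers, 10 could be tested, with a median log2 fold change of -0.41 and 4 of 10 above 0 (Vim, Col1a2, Pax9 and Col1a1). None was called without the block, and with it 2 were higher (Vim and Col1a2; 11.3% of all genes tested) and 4 lower (Dlx2, Dlx1, Msx1 and Pdgfra; 11.4% of all genes). Their summed level ranged from 6636 to 8788 CPM in fx/fx and from 8977 to 13291 CPM in ko/ko cells, a sum made up mostly of Col1a1, Col1a2 and Vim. Among the tooth transcription factor genes, Dlx2 averaged 48.8 and 8.25 CPM in fx/fx and ko/ko cells (log2 fold change -2.55), Dlx1 9.88 and 4.93 CPM and Msx1 7.03 and 4.06 CPM (adjusted p with the block from 0.0023 to 0.0222, edgeR). Pax9 averaged 2.10 and 3.02 CPM and was not called with or without the block, and Barx1 and Lhx8 were near 0. The 8 odontoblast markers summed to 95.3 to 169.7 CPM in fx/fx and 45.4 to 82.0 CPM in ko/ko cells, with a median of -1.13 over 5 tested genes. Of these, Alpl was called lower (41.3 against 0.851 CPM, adjusted p = 0.0153, edgeR), and Dspp was at or near 0 in both lines. The glial and neuronal markers summed to 21.8 to 42.2 and 45.1 to 58.9 CPM, mostly Tubb3, with Sox10 near 0. The 12 cartilage markers summed to 41.0 to 58.2 and 33.3 to 36.8 CPM, with Col9a1 at 0 in all libraries, and leukocyte markers to 4.22 to 14.2 and 2.78 to 3.56 CPM, with Ptprc near 0. Summed epithelial markers stayed between 0.618 and 3.15 CPM. Muscle and tendon markers summed to 44.8 to 58.7 CPM in fx/fx and 43.3 to 46.1 CPM in ko/ko cells. Endothelial markers summed to 1.88 to 3.41 and 1.51 to 3.66 CPM. With the block, 3 of 5 tested odontoblast markers (Alpl, Sp7 and Runx2), 2 of 7 cartilage markers (Sox9 and Col2a1), both tested leukocyte markers (Cd68 and Csf1r) and the 1 tested epithelial marker (Krt14) were called lower, and Tubb3 was called higher. Also with the block, 1 of 4 tested muscle and tendon markers was called lower, and of 2 tested endothelial markers 1 was higher and 1 lower. The part of these differences in the results below was not tested.

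Promoter windows are shown for the genes called between the lines when culture time was a block in the fit: Aspn, Omd and Ogn, which are neighbours on chromosome 13, and Vcan, which lies further along the same chromosome. Each window runs from 250 bases before to 50 bases after the RefSeq gene start (GRCm38.p6) and reads 5′ to 3′ along the gene. Every window matched mm9, the build of the count tables, exactly once, at chr13:49639562-49639861 for Aspn, chr13:49677581-49677880 for Omd, chr13:49703134-49703433 for Ogn (all plus strand) and chr13:89882068-89882367 for Vcan (minus strand). Capitals mark matches, on either strand, to the TATA box letters TATAAA, the CCAAT box letters CCAAT, the GC box letters GGGCGG, the AP-1 letters TGANTCA, the TEAD letters CATTCC, the RUNX letters ACCACA, the GC-rich BMP Smad letters GGCGCC and the Smad palindrome GTCTAGAC.
Aspn: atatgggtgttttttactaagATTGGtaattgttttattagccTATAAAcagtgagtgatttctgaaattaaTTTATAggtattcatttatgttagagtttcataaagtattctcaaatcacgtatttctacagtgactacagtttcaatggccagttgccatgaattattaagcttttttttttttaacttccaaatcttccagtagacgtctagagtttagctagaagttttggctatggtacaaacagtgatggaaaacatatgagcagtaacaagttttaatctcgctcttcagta
Omd: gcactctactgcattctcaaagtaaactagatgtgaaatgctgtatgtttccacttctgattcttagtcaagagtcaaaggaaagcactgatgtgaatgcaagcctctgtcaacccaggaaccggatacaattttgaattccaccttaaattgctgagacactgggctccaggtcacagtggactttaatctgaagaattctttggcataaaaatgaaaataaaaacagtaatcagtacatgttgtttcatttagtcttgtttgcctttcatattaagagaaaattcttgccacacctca
Ogn: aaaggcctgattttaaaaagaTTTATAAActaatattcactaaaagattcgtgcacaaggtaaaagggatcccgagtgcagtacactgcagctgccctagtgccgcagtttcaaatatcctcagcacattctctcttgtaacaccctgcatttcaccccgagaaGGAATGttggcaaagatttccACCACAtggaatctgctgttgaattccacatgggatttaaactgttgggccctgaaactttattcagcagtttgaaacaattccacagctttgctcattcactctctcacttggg
Vcan: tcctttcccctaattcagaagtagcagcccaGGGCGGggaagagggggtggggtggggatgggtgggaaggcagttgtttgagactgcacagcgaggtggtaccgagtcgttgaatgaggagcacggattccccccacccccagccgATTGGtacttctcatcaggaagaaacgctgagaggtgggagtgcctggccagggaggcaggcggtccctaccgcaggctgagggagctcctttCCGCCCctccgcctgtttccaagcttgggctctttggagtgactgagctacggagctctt

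The 3 cluster windows were rich in A and T, with 31.0%, 37.7% and 42.3% G and C in Aspn, Omd and Ogn, against 61.0% in Vcan. Aspn held 2 TATAAA matches and 1 CCAAT match, Omd held none of the 8 motifs, and Ogn held 2 overlapping TATAAA matches in opposite directions, 1 CATTCC and 1 ACCACA. Vcan held 2 GGGCGG matches and 1 CCAAT match. No motif was shared by all 3 cluster genes. Among all 32851 RefSeq promoter windows of this length, TATAAA occurred in 13.6%, CCAAT in 37.4%, GGGCGG in 35.7%, CATTCC in 14.7% and ACCACA in 16.8%. The AP-1 letters (7.81% of all windows), GGCGCC (11.9%) and GTCTAGAC (0.213%) occurred in none of the 8 proteoglycan windows available. The Omd and Ogn windows end upstream of the gene starts given below for these genes (49678135 and 49703440), so they follow a different annotated start. Which start is used in these cells was not tested. Such matches describe the letters of the windows and not the binding of any factor.

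Expressed per length as RPKM, the CPM divided by the kilobases of exon, biglycan (Bgn) was by far the most abundant of the proteoglycan transcripts. It ranged from 585 to 914 RPKM over the 4 fx/fx libraries and from 778 to 977 RPKM over the ko/ko libraries of 6, 48 and 72 h. In fx/fx cells the mean RPKM at 6, 48 and 72 h then ran through Vcan (27.0), Dcn (23.0), Prelp (15.6), Ogn (13.4), Fmod (6.17), Aspn (3.33) and Omd (2.89). In ko/ko cells the order was Dcn (41.8), Prelp (32.5), Ogn (24.0), Aspn (14.5), Vcan (13.5), Omd (10.2) and Fmod (2.50). The ranges over culture time of every pair of neighbours below Bgn overlapped in fx/fx cells, and likewise in ko/ko cells except for Omd, at 3.82 to 15.2 RPKM, against Fmod, at 1.23 to 3.27 RPKM. Bgn alone took 0.204% to 0.348% of all counts on genes and ranked between the 3rd and the 12th most counted gene in the 8 libraries. It made up 76.6% to 89.6% of the summed proteoglycan counts, and Vcan made up 1.69% to 19.3%.

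**Figure D1:**
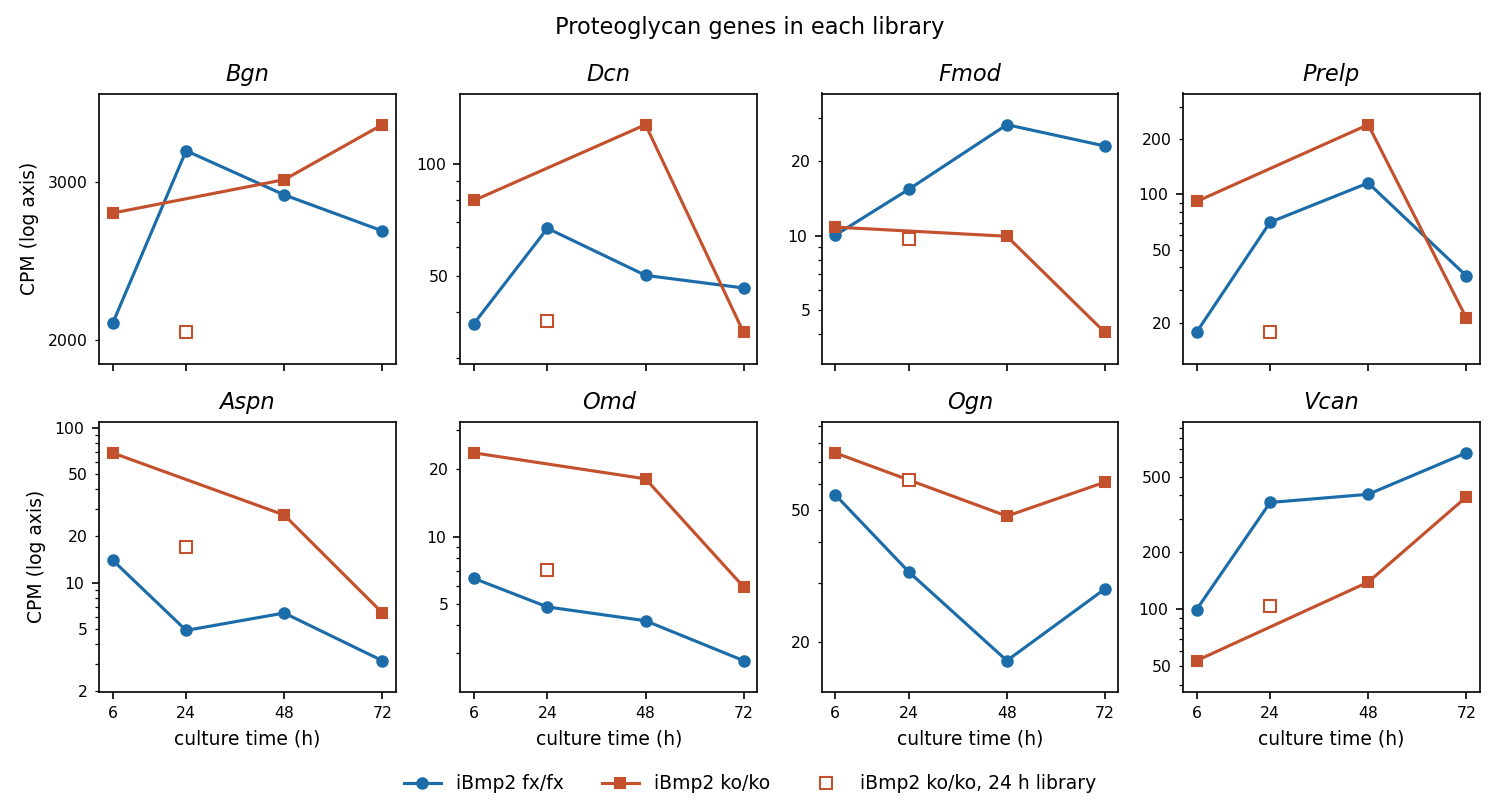
Level in CPM (log axis, own range in each panel) against culture time in hours for the 8 proteoglycan genes that could be tested, 1 point per library, with circles for fx/fx, filled squares for ko/ko and an open square for the library labelled ko/ko at 24 h. Aspn, Omd and Ogn lie higher and Vcan lower in ko/ko cells at 6, 48 and 72 h, while the Dcn and Prelp lines cross by 72 h.

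Biglycan, a class I member with chondroitin or dermatan sulfate chains, is encoded at chrX:70728941-70741272 (mm9, plus strand). It was measured at 2086, 3256, 2906 and 2648 CPM in fx/fx cells at 6, 24, 48 and 72 h. The ko/ko libraries of 6, 48 and 72 h gave 2773, 3022 and 3482 CPM, and the library labelled 24 h gave 2038 CPM. The groups overlapped, and the means were 2547 ± 419 and 3092 ± 360 CPM (SD over the 3 culture times of each genotype). The log2 fold change of ko/ko against fx/fx was 0.28 ± 0.24 (SE; adjusted p = 0.680, edgeR). Bgn was thus abundant in both lines, without a difference beyond the spread over culture times. In bulk RNA such as this, fewer cells with a transcript and less of it per cell cannot be told apart.

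Decorin (Dcn), the other class I member with such chains, binds collagen fibrils and TGF-beta and lies at chr10:96942245-96980777 (plus strand). Its levels in fx/fx cells were 37.2, 67.2, 50.2 and 46.4 CPM at 6, 24, 48 and 72 h. In ko/ko cells they were 79.8 CPM at 6 h, 128 CPM at 48 h and 35.2 CPM at 72 h, with 37.9 CPM in the 24 h library. Thus ko/ko was 2.15-fold higher at 6 h and 2.54-fold higher at 48 h, but at 0.759 of the fx/fx level at 72 h. Its log2 fold change was 0.85 ± 0.42 (SE; adjusted p = 0.435, edgeR), and the groups overlapped.

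Asporin (Aspn), a class I member with an aspartate-rich stretch that is known to bind TGF-beta and BMP2, lies at chr13:49639812-49662926 (plus strand). It was at 14.0, 4.91, 6.35 and 3.13 CPM in fx/fx cells at the 4 times in order. In ko/ko cells it was at 68.7, 27.3 and 6.37 CPM at 6, 48 and 72 h, and at 17.0 CPM in the 24 h library. The ko/ko level was 4.92-fold higher at 6 h, 4.29-fold at 48 h and 2.04-fold at 72 h. The value of the 24 h library lay nearest to the fx/fx library of 6 h. The groups overlapped when times were pooled, because Aspn was lower at later times in both lines. The log2 fold change was 2.13 ± 0.85 (SE; adjusted p = 0.322, edgeR) without regard to time and 1.87 ± 0.24 (adjusted p = 0.0023) with culture time as a block, which compares the libraries of each time with each other.

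Osteomodulin or osteoadherin (Omd), a keratan sulfate proteoglycan of bone and dentin that binds integrin, lies at chr13:49678135-49687978, 15209 bp from Aspn. It was at 6.50, 4.84, 4.20 and 2.78 CPM in fx/fx cells. In ko/ko cells it was at 23.7, 18.1 and 5.95 CPM at 6, 48 and 72 h, and at 7.05 CPM in the 24 h library. The ko/ko level was higher by 3.65-fold at 6 h, 4.32-fold at 48 h and 2.14-fold at 72 h, and the 24 h value lay nearest to the fx/fx library of 6 h. For Omd the log2 fold change was 1.83 ± 0.53 (SE; adjusted p = 0.177, edgeR), and 1.72 ± 0.22 (adjusted p = 0.0022) with culture time as a block. DESeq2 called Omd without the block as well (adjusted p = 0.0121, where it called 6.65% of all genes).

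Osteoglycin or mimecan (Ogn), a class III member known from bone and other connective tissues, lies at chr13:49703440-49719869, 15462 bp from Omd. Levels in fx/fx cells were 55.6, 32.5, 17.5 and 28.9 CPM. Those in ko/ko cells were 74.5, 48.0 and 60.8 CPM at 6, 48 and 72 h, and 61.5 CPM in the 24 h library. The ko/ko level was 1.34-fold higher at 6 h, 2.74-fold at 48 h and 2.10-fold at 72 h. The pooled groups overlapped, through the fx/fx library of 6 h. For Ogn it came to a log2 fold change of 0.85 ± 0.40 (SE; adjusted p = 0.415, edgeR), and 0.98 ± 0.19 (adjusted p = 0.0111) with the block.

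Fibromodulin (Fmod), a class II member with keratan sulfate chains that steers collagen cross-linking, lies at chr1:135933831-135944854 (plus strand). It was at 10.03, 15.4, 28.1 and 23.0 CPM in fx/fx cells. In ko/ko cells it was at 10.8, 9.94 and 4.06 CPM at 6, 48 and 72 h, and at 9.67 CPM in the 24 h library. The lines were alike at 6 h, with a ratio of 1.08, and the ko/ko level was 0.354 of the control at 48 h and 0.176 at 72 h. Over the 3 times its log2 fold change was -1.31 ± 0.49 (SE; unadjusted p = 0.0304, adjusted p = 0.289, edgeR), and -1.28 (adjusted p = 0.0688) with the block.

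Prolargin (Prelp), a class II member that anchors basement membranes to collagen, lies at chr1:135806881-135817991 (minus strand), 115840 bp from Fmod, and shares 350 exon bases with the lncRNA gene Gm15851 on the opposite strand. It had the highest level at 48 h in both lines. Levels in fx/fx cells were 17.8, 70.5, 115 and 36.0 CPM, and those in ko/ko cells were 91.4, 239.7 and 21.2 CPM at 6, 48 and 72 h, with 17.7 CPM in the 24 h library. The ko/ko level was 5.15-fold higher at 6 h and 2.08-fold higher at 48 h, but 0.590 of the control at 72 h. Over the 3 times the log2 fold change was 1.05 ± 0.92 (SE; adjusted p = 0.695, edgeR). It was -0.035 without the ko/ko library of 48 h, with the fx/fx library of 48 h kept. With culture time as a block and both libraries of 48 h left out it was 0.81, so the sign depended on how that time was handled.

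Lumican (Lum), the class II proteoglycan of cornea and other collagenous tissues, lies at chr10:97028135-97035337, 47358 bp from Dcn, and was near the limit of detection. It had 18, 10 and 2 counts in the ko/ko libraries of 6, 48 and 72 h. It had 1 count in the fx/fx library of 48 h and 0 in the remaining fx/fx libraries and in the 24 h library of ko/ko. Summed over 6, 48 and 72 h there were 30 counts against 1, a ratio of 33.1 (exact 95% interval 5.51 to 1352, covering counting error only). At 72 h the 2 counts lay below the floor of 3 counts, which corresponds to 0.0925 to 0.116 CPM per library. Lum did not pass the filter on low counts and was not tested in the main comparison.

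Versican (Vcan), the large chondroitin sulfate proteoglycan of provisional matrix, lies at chr13:89794915-89882117 (minus strand). It was at 99.8, 366, 404 and 668 CPM in fx/fx cells. In ko/ko cells it was at 53.7, 139 and 391 CPM at 6, 48 and 72 h, and at 104 CPM in the 24 h library. The ratio of the ko/ko level to the control was 0.538 at 6 h, 0.345 at 48 h and 0.585 at 72 h. At 24 h the ko/ko library lay nearest to the fx/fx library of 6 h. The log2 fold change was -1.002 ± 0.85 (SE; adjusted p = 0.685, edgeR) without regard to time, and -1.06 ± 0.16 (adjusted p = 0.0039) with culture time as a block.

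Aggrecan (Acan), the cartilage proteoglycan, lies at chr7:86198369-86259985 (plus strand). It had 1 count in the fx/fx library of 6 h, 2 counts in the ko/ko library of 72 h and 0 in the other 6 libraries. No library exceeded the floor of 3 counts, and no fold is given.

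**Figure D2:**
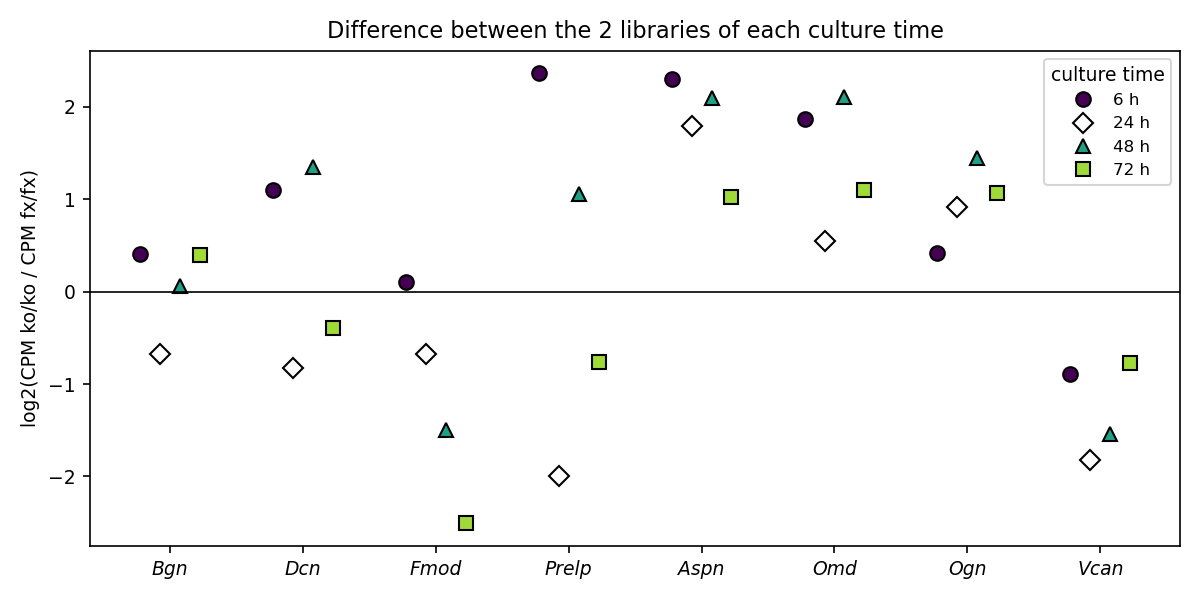
Difference between both lines at each culture time, as log2 of the CPM ratio of ko/ko to fx/fx, for the 8 testable proteoglycan genes, where each point compares 1 library with 1 library, so it has no error bar, and open diamonds are the 24 h pair. At 6, 48 and 72 h the points of Aspn, Omd, Ogn and Bgn are above 0 and those of Vcan below it, while Dcn, Prelp and Fmod have points on both sides, and the 24 h diamonds rest on the library that resembles fx/fx of 6 h.

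Taken over the 8 genes tested, the comparison of the lines without regard to culture time called 0 at an adjusted p of at most 0.05 with edgeR, where 2.22% of all 13121 genes tested were called. At an unadjusted p under 0.05 there were 3, where 14% of all genes tested were. With adjustment DESeq2 called 1 (Omd, background 6.65%) and limma 0 (background 2.4%). The limit of the study as read here, more than 1 log2 unit in either direction with an unadjusted p below 0.05, was passed by 3 of 8, against a background of 7.35%. Omd and Aspn were higher (background 3.31% for higher genes) and Fmod was lower (4.04% for lower genes). None of the 8 had groups that did not overlap, a pattern found in 19.3% of all genes tested. With culture time as a block, 4 of 8 were called against a background of 22.7%. Aspn, Omd and Ogn rose (background 11.3% for higher genes) and Vcan fell (11.4% for lower genes). The median log2 fold change of the 8 genes without the block was 0.85, beside 0.03 for all genes tested, and 6 of the 8 were above 0.

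The doubtful library and single times bore on these counts. Over all 8 libraries, 3 of 8 genes passed the study's limit (background 3.55%), and 0 were called after adjustment (background 0%). With the block over all 8 libraries, Aspn alone was called (log2 fold change 1.82, adjusted p = 0.0427), against a background of 0.306%. Blocked fits without both libraries of 1 time were added after seeing the data and left 2 culture times. Without 6 h they called 5 of 8 (Aspn, Omd, Ogn and Vcan with Fmod at -1.97; background 13.9%). Without 48 h they called 4 of 8 (Aspn, Omd, Ogn and Vcan; background 19.6%). Without 72 h they called 5 of the same 8 (Aspn, Omd, Dcn, Prelp and Vcan, with Ogn at an adjusted p of 0.0638; background 11.7%). Lum then passed the filter through the ko/ko libraries alone, so it is not counted. Aspn, Omd and Vcan kept their call in all 3. In the comparison without the block, leaving out single libraries moved Aspn between 1.13 (without ko/ko of 6 h) and 2.79 (without fx/fx of 6 h). Vcan moved between -0.33 (without fx/fx of 72 h) and -2.07 (without ko/ko of 72 h), Ogn between 0.54 (without fx/fx of 48 h) and 1.35 (without fx/fx of 6 h), and Dcn between 0.35 (without ko/ko of 48 h) and 1.18 (without ko/ko of 72 h).

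**Figure D3:**
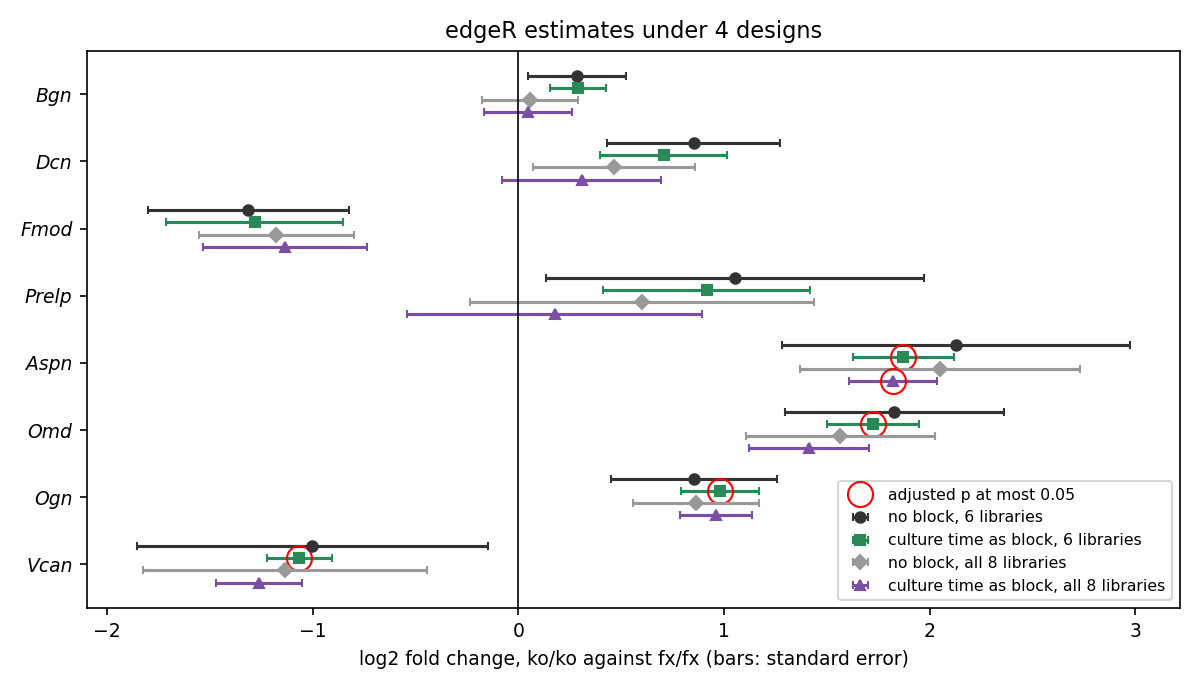
Log2 fold change of ko/ko against fx/fx (horizontal axis; bars are standard errors) for the 8 testable genes under 4 edgeR designs, and red rings mark an adjusted p of at most 0.05. The estimates of Aspn, Omd, Ogn and Vcan keep their sign in each design and their standard errors are smaller with culture time as a block (Aspn 0.24 against 0.85, Vcan 0.16 against 0.85). When the 24 h libraries enter, Omd, Bgn, Dcn and Prelp come nearer to 0, as do Fmod and Aspn by less, and Vcan moves away from 0.

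Over culture time the levels ran in different directions, with 1 library per line and time. Vcan was 6.70-fold higher at 72 h than at 6 h in fx/fx cells and 7.29-fold higher in ko/ko cells. Its slope over 7 libraries, without the 24 h library of ko/ko, was 0.75 ± 0.11 (SE) on the log2 scale per doubling of culture time (unadjusted p = 0.000148, adjusted p = 0.0918, edgeR). Aspn went the other way, to 0.224 of its 6 h level at 72 h in fx/fx and 0.0928 in ko/ko cells, with a slope of -0.59 ± 0.13 (adjusted p = 0.110). Omd reached 0.428 and 0.251 of its 6 h level (slope -0.31 ± 0.11, adjusted p = 0.148). Ogn reached 0.519 and 0.816 (slope -0.21 ± 0.09, adjusted p = 0.186).

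No gene of 13208 was called for a time trend after adjustment by edgeR (background 0%), although 26.1% of genes, among them these 4 proteoglycan genes, had an unadjusted p under 0.05. DESeq2 called 12.5% of all genes, including Vcan and Aspn. Without the ko/ko library of 48 h, edgeR called Vcan (adjusted p = 0.0205), Aspn (0.0404) and Omd (0.0457), against a background of 8.01%. The slopes of Bgn (0.12), Dcn (0.03), Fmod (0.09) and Prelp (0.29) had adjusted p-values from 0.289 to 0.893.

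For Fmod the values over time ran in opposite directions in the lines, a difference that was not called after adjustment. The level at 72 h was 2.30-fold that at 6 h in fx/fx cells and 0.375 of it in ko/ko cells. The difference of the slopes was -0.65 ± 0.21 (SE; unadjusted p = 0.0206, adjusted p = 1.00, edgeR). Leaving out single libraries moved it between -0.44 (without ko/ko of 72 h) and -2.43 (without ko/ko of 6 h, adjusted p = 0.328). It was the only one of the 8 genes with an unadjusted p under 0.05. The interaction test called 0 of 13208 genes after adjustment (background 0%), 133 genes (1.01%) at an unadjusted p under 0.05, and 1 gene (0.00757%) with DESeq2. For Vcan the difference of the slopes was -0.01 ± 0.21 and for Aspn -0.22 ± 0.29, neither of which passed the test. Without the ko/ko library of 6 h they were 1.99 and -2.91 (adjusted p = 0.328 for both), so these values too rested on that library.

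The genes lie in groups on their chromosomes, and neighbours within 200 kb were read in the same tables. On chromosome 13, Aspn, Omd and Ogn share one strand and lie inside the span of Cenpp, a centromere protein gene on the opposite strand with which they share 0 exon bases. Cenpp had a log2 fold change of 0.19 ± 0.24 (adjusted p = 0.805, edgeR). Ecm2, a further leucine-rich repeat gene 11654 bp from Aspn, was at 1.75 CPM in fx/fx and 3.01 CPM in ko/ko cells (log2 fold change 0.79 ± 0.67, adjusted p = 0.684). The flanking genes Ippk, Bicd2, Nol8 and Iars, which belong to no matrix family, had log2 fold changes from -0.28 to 0.01. With the block, neither Ecm2 (adjusted p = 0.0795) nor any of these was called, and the median of chromosome 13 was -0.05.

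On chromosome 1, Prelp lies 2305 bp from Optc, the gene of opticin, a small leucine-rich protein of the eye. Optc was low and averaged 0.653 ± 0.121 CPM in fx/fx and 1.90 ± 0.586 CPM in ko/ko cells (SD, n = 3), and the log2 fold change came to 1.53 ± 0.38 (adjusted p = 0.117, edgeR; 0.0129 with the block). Btg2, a cell cycle gene beside Fmod, had a log2 fold change of -0.04. Further away, Chi3l1 (-2.91 ± 1.05) and Adora1 (-3.44 ± 0.66) were at 0.641 and 0.114 CPM in ko/ko cells, against 4.83 and 1.30 CPM, and both were called with the block only (adjusted p = 0.0011 and 0.0014). Adora1 had under 10 counts in each ko/ko library of these times, so it passed the filter through fx/fx alone and its fitted fold depends on the handling of low counts. Also called with the block only was Atp2b4, 109263 bp from Prelp (-1.19, adjusted p = 0.0204). Near Bgn, Slc6a8 (-0.80, adjusted p = 0.0080), and near Acan, Isg20 (0.94, adjusted p = 0.0208), were likewise called with the block only. On chromosome 10, Kera and Epyc, which follow Lum, never exceeded 3 counts. The link protein genes Hapln1, 43478 bp from Vcan, and Hapln3, 41 bp from Acan, had at most 1 and 4 counts.

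**Figure D4:**
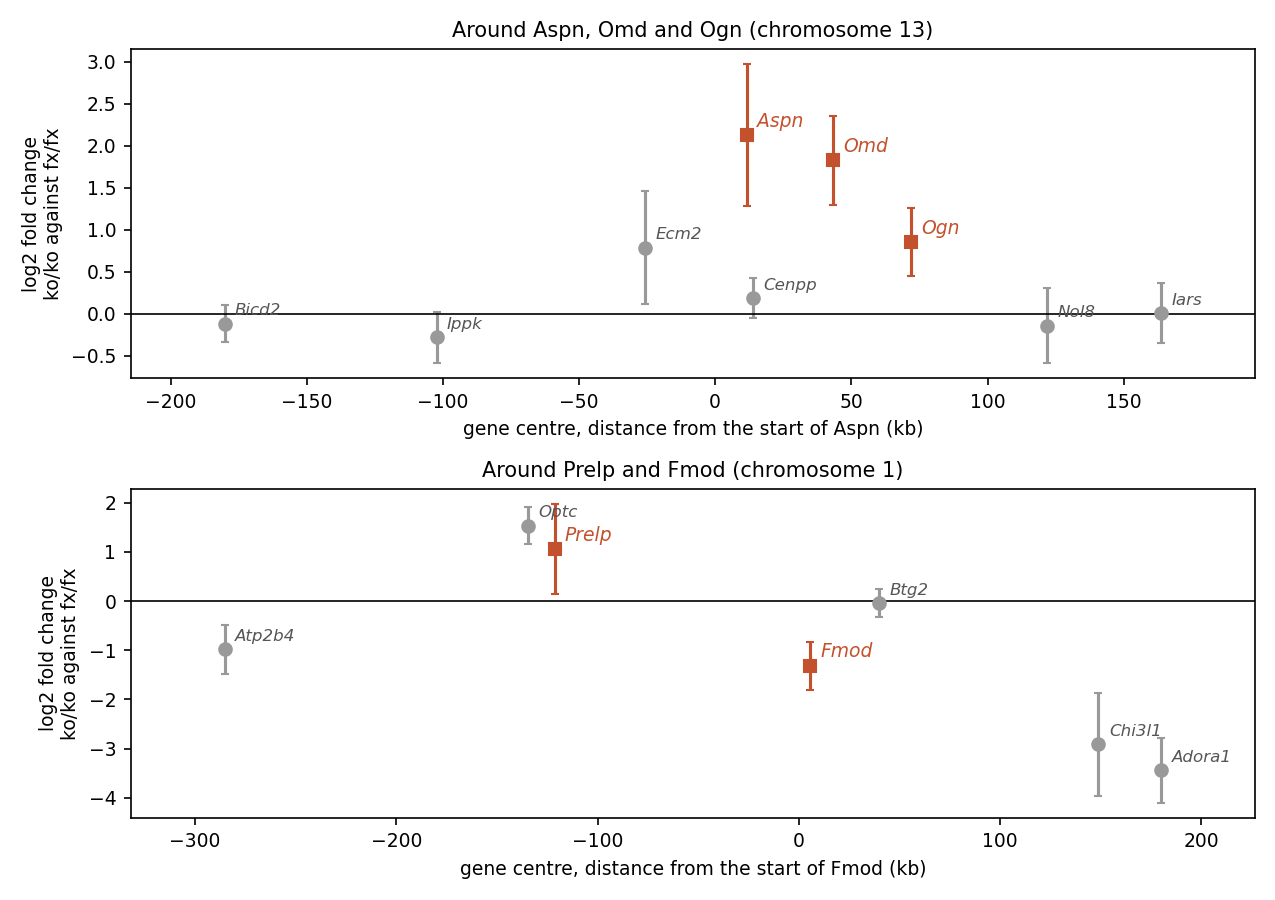
Log2 fold change of ko/ko against fx/fx (edgeR, 6 libraries, no block; bars are standard errors) against the distance of each gene's centre from the start of Aspn (top) or Fmod (bottom) in kb, with squares for proteoglycan genes of the set and circles for other tested genes within 200 kb of one. The points of Aspn and Omd lie above those of the flanking genes, while Ogn (0.85 ± 0.40) lies close to Ecm2 (0.79 ± 0.67). Ippk, Bicd2, Nol8 and Iars lie between -0.28 and 0.01, and Prelp and Fmod lie on opposite sides of 0.

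Other genes of proteoglycan assembly and turnover were read from 6 lists. Among the other small leucine-rich genes, 0 of 8 tested were called after adjustment by edgeR and 1, Optc, passed the study's limit (background 7.35%). The most abundant, Tsku (39.5 against 42.1 CPM), Podnl1 (36.5 against 35.4 CPM) and Podn (5.92 against 3.41 CPM), had log2 fold changes of 0.10, -0.04 and -0.79. The list's median was -0.09.

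Of 16 other matrix and cell surface proteoglycans, 1 was called (background 2.22%). This was Cspg4, the gene of NG2, at 0.749 ± 0.216 and 0.140 ± 0.0124 CPM (SD, n = 3; log2 fold change -2.37 ± 0.44, adjusted p = 0.0441, edgeR). It had 29, 26 and 16 counts in fx/fx and 4, 4 and 4 in ko/ko cells at 6, 48 and 72 h, so it passed the filter through fx/fx alone and was not tested where 10 counts were asked of every library. At 24 h it had 17 counts in fx/fx and 25 in the library labelled ko/ko, and over all 8 libraries the log2 fold change was -1.07 (adjusted p = 0.569). It was no longer called when any 1 of the 6 libraries was left out (adjusted p from 0.0741 to 0.223). The abundant ones, perlecan (Hspg2, -0.35), syndecan-2 (Sdc2, -0.20) and agrin (Agrn, 0.85), were not called. With the block, 2 of 16 were called higher, Agrn (adjusted p = 0.0063) and Gpc2 (background 11.3% for higher genes), and Sdc1 was called lower (11.4% for lower genes). Cspg4 was lower as well, but is not counted, since it passed the filter through fx/fx alone. The list's median was -0.26.

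Versican binds hyaluronan, and 9 genes of hyaluronan synthesis, binding and breakdown were tested, among them the hyaluronidase genes Hyal1 and Hyal2. Of these 9, 0 were called after adjustment by edgeR, and 1 (Hapln4) had an unadjusted p under 0.05 (background 14%). The log2 fold change was below 0 for 8, and the list's median was -0.42. Cd44, the main hyaluronan receptor, averaged 293 and 198 CPM (-0.56), Hmmr 129.7 and 106.9 CPM (-0.28) and Hapln4 80.2 and 45.4 CPM (-0.82). The synthase Has2 was at 58.1 and 37.4 CPM (-0.63). With the block, 4 of 9 fell (Has2, Hapln4, Cd44 and the hyaluronidase gene Hyal1), where the background for lower genes was 11.4%.

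Of 26 tested genes of chondroitin and dermatan sulfate synthesis, 0 were called after adjustment by edgeR. Ugdh, which makes the UDP-glucuronate used for these chains, averaged 481 ± 103 and 232 ± 45.5 CPM (SD, n = 3; -1.05 ± 0.26, adjusted p = 0.118). The sulfotransferase gene Chst15 averaged 6.35 and 3.11 CPM (-1.03 ± 0.31, adjusted p = 0.191). Both passed the study's limit, 2 of 26 beside 7.35% of all genes tested, and both were called with the block (adjusted p = 0.0010 and 0.0153). Chpf (0.36) and Chpf2 (-0.26), the other abundant genes, were not called without the block. With it 4 genes rose (Csgalnact1, Chpf, Dse and Dsel; background 11.3%) and 5 fell (Ugdh, Chsy1, Chst3, Chst11 and Chst15; background 11.4%), and the list's median without it was -0.14.

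Of 8 tested genes of keratan sulfate synthesis, whose chains Fmod, Lum, Prelp and Omd can carry, 0 were called after adjustment by edgeR, 2 (B4galt1 and Chst1) had an unadjusted p under 0.05 (background 14%), and the median was -0.19. B4galt1 averaged 230.5 and 173 CPM (-0.41), Slc35a3 64.7 and 37.4 CPM (-0.79) and Fut8 44.1 and 37.4 CPM (-0.23). With the block, 3 fell (B4galt1, Chst1 and Slc35a3; background 11.4%).

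Proteases that cut proteoglycans had a median of 0.71 over 9 tested genes. Mmp3 (stromelysin 1) had 2, 5 and 4 counts in fx/fx and 38, 74 and 23 in ko/ko cells at 6, 48 and 72 h, or 0.115 ± 0.0462 and 1.53 ± 0.793 CPM (SD, n = 3). Both libraries of 24 h had 2 counts. Mmp3 was the 1 gene of 9 called (adjusted p = 0.0252, edgeR), beside 2.22% of all genes tested. However, it passed the filter through ko/ko alone and was not tested where 10 counts were asked of every library. Its fitted log2 fold change of 3.68 depends on the handling of low counts. The call stayed without the ko/ko library of 72 h and was lost on leaving out any of the other 5 (adjusted p from 0.0737 to 0.133). Adamts5, an aggrecanase that also cuts versican, averaged 43.7 ± 19.7 and 204 ± 130 CPM (2.22 ± 0.56, adjusted p = 0.123). Adamts9, another versican-cutting protease, averaged 42.2 ± 25.1 and 15.6 ± 9.25 CPM (-1.43 ± 0.56, adjusted p = 0.317). With the block, Adamts5, Bmp1 and Mmp2 were higher (background 11.3%) and Adamts9 was lower (11.4%). Mmp3 was higher as well, but is not counted, since it passed the filter through ko/ko alone. Mmp14 (0.08) was abundant in both lines and was not called.

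**Figure D5:**
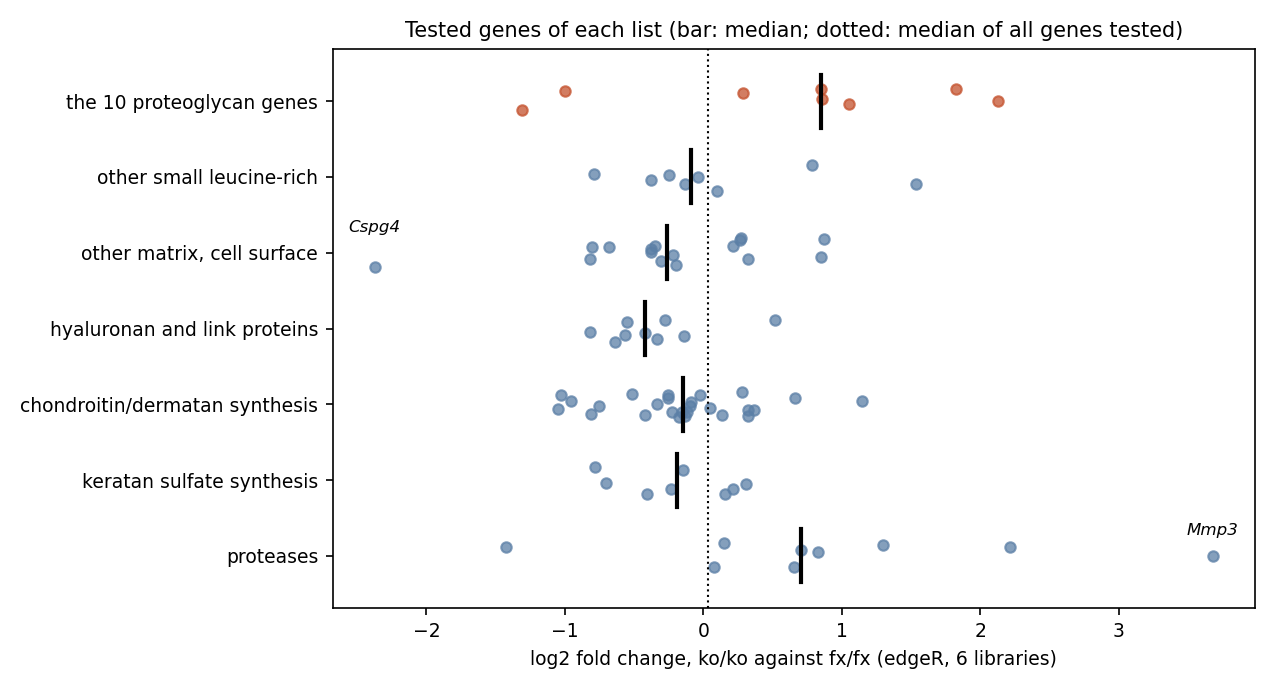
Log2 fold change of ko/ko against fx/fx (edgeR, 6 libraries, no block) for every tested gene of the 10 proteoglycan genes and of 6 related lists, where points are genes, short bars the list medians and the dotted line the median of all genes tested (0.03), and the genes named are those with an adjusted p of at most 0.05. Medians of the proteoglycan genes (0.85) and of the proteases (0.71) lie to the right, and those of the other lists lie between -0.42 and -0.09.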

How the data were processed

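Total RNA libraries were prepared with an Illumina TruSeq total RNA kit. The authors aligned the reads to mm9 with TopHat2 (2.0.8b, after CASAVA 1.8.2, in the submitters' processing notes) and counted them with HTSeq. The deposited values are whole-number read counts per gene symbol, not normalized, with a second table of counts for lncRNA symbols. The labels describe single-end reads and the study's methods paired reads. The annotation and the strand setting of the counting are not given in the sources used here. Without strand, reads from a gene and an antisense partner cannot be told apart. The 5 HTSeq summary rows of each table were left out; alignments placed at several sites made up 41.3% to 49.6% of the column.

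Counts were divided by the reads on genes (CPM) and by the merged exon length in GENCODE M1 on mm9 (RPKM), in which 95.7% of symbols were found, all 10 genes among them. Of RefSeq promoters, 8 of 10 genes had an entry; Dcn and Lum had none. Genotype was tested on 6 libraries with edgeR 4.0.16 under R 4.3.3 (TMM, filter of at least 10 counts and 15 in total, quasi-likelihood test, Benjamini-Hochberg adjustment over all genes). The study's limma test on log2 RPKM was replaced by this count test. The 8 of 10 genes above the filter were tested. Time and interaction were tested on 7 libraries against log2 of time. Alternatives used DESeq2 1.42.0, limma 3.58.1, other scalings, filters and libraries. The scripts were tested on simulated data. Genes named outside the set were those called, the most abundant 3 of each list, those with the largest difference past the study's limit, and tested neighbours within 200 kb that lie beside a gene of the set or were called with the block. List genes called only with the block are named in addition. The study states its p limit without saying whether p was adjusted, and elsewhere a q value; it was applied here to the unadjusted p.

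At each culture time both libraries moved alike around their genotype means (correlation across genes 0.697 at 6 h, 0.514 at 48 h and 0.824 at 72 h), so that culture time pairs them, and blocked values are printed where they change a call. Culture times stand in for replicates, and p-values measure the spread over these libraries only. The proteoglycan genes and all lists were chosen with earlier results of these data known.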

Additional observations from a re-analysis of the deposited data

Results flagged for a closer look

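Among the iBmp2 ko/ko libraries, Fmod in the library of 72 h lay far from the other 3: its gap to the nearest, divided by the range of the group, was 0.886. The level was 4.06 CPM, against 9.67 to 10.8 CPM in the other iBmp2 ko/ko libraries, among them the doubtful one of 24 h at 9.67 CPM. Of 16 groups screened (8 genes in 2 lines) this was the 1 marked, and about 1 group in 20 would be marked by chance. Fmod also went in opposite directions after 6 h. Both later iBmp2 fx/fx libraries of the main comparison were above the 6 h level and both iBmp2 ko/ko libraries below it, which left iBmp2 ko/ko lower at 72 h by a log2 ratio of -2.51. The interaction test, which bears on this difference, gave an adjusted p of 1.00 (edgeR).

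The lncRNA table held 2 transcripts that overlap the loci of these genes whose highest level was in the iBmp2 ko/ko library of 48 h. Gm15851 lies opposite Prelp and shares 350 exon bases with it. It reached 36.0 CPM in the iBmp2 ko/ko library of 48 h, against at most 16.7 CPM in iBmp2 fx/fx, but at 72 h was at 2.36 CPM in iBmp2 ko/ko and 4.73 CPM in iBmp2 fx/fx. Its counts were 11.09% to 15.005% of those of Prelp in every library. Reads from the pair cannot be told apart without the strand of counting. Gm4117, which overlaps the Vcan locus with 0 shared exon bases, reached 5.23 CPM in the same library, against at most 2.78 CPM in iBmp2 fx/fx, but at 6 h was at 1.23 CPM in iBmp2 ko/ko and 1.87 CPM in iBmp2 fx/fx.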

How the results depend on the processing

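Of 152 genotype values of the 8 genes under alternatives, 151 kept their sign; the exception was Prelp (leave-one-out range -0.035 to 2.10). Genes of the set called after adjustment numbered 0 in the main comparison, 4 with culture time as replicate block (pairing) over 6 libraries, 1 with it over 8, 1 with DESeq2, and 0 to 2 when single libraries were left out (Omd, and Lum through its ko/ko counts alone, without the iBmp2 ko/ko library of 72 h). The blocked fits without 6, 48 or 72 h gave 5, 4 and 6 (the last with Lum, which passed the filter through ko/ko alone). Genes past the study's limit numbered 3, with 1 to 5 on leaving out a library (5 without iBmp2 fx/fx of 6 h or iBmp2 ko/ko of 72 h, both with Lum) and 5 and 6 in the blocked fits without 6 h and without 72 h, the 6 with Lum. With Lum left out the single-library range was 1 (without iBmp2 ko/ko of 48 h or iBmp2 fx/fx of 48 or 72 h) to 4, beside 5.87% to 10% of all genes, and the blocked fit without 72 h gave 5 (10.7%). The 2 calls in the 6 related lists, Cspg4 and Mmp3, each passed the filter through 1 line alone. Calls in these lists became 0 with all 8 libraries or at least 10 counts in every library, 26 (with Cspg4 and Mmp3) and 1 with the block over 6 and 8, 8 with DESeq2, 1 with limma or without filter, and 0 to 1 on leaving out a library. Calls over all genes (291) became 0 with 8 libraries, 483 with 7, 2981 and 40 with the block over 6 and 8, 873 with DESeq2, 145 with the stricter filter and 9 to 383 on leaving out a library, the lowest without iBmp2 ko/ko of 48 h. For time, calls within the set (0) became 2 with DESeq2, 1 without filter (Vcan) and 0 to 3 on leaving out a library. Calls over all genes for time (0) became 1 with 8 libraries, 1649 with DESeq2, 16 without filter and 0 to 1069 on leaving out a library. DESeq2 called 1 gene for the interaction. Slopes reversed for Dcn in hours (-0.0031), for Dcn (-0.049) and Fmod (-0.23) in iBmp2 ko/ko alone, and within leave-one-out ranges for Dcn (-0.10 to 0.16), Fmod (-0.14 to 0.36) and Prelp (-0.071 to 0.53). The causes were not tested. Depth limited Lum and Acan alone of the 10 genes.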
